A study of Mus musculus with 8 samples.

Results

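The replication fork and DNA polymerase genes described here are 34 genes named in a list and found by symbol among 49315 Ensembl genes. They encode subunits of the origin recognition complex, the replicative polymerases, the sliding clamp and its loader, the GINS complex, fork protection proteins and the chromatin assembly factor. All 34 were counted in every library and all 34 passed the filter on low counts, with 29 to 6706 counts per gene and library. They lie on 16 chromosomes. The cells were cardiomyocytes of C57/Bl6 mouse hearts at embryonic day 12.5, pooled from both sexes and kept in culture. Control cells (4 libraries) received control medium, and treated cells (4 libraries) received medium with 10 µM simvastatin, a drug that blocks the enzyme making mevalonate. The study asks about the mevalonate pathway in cardiomyocyte proliferation. The sources used here state neither the time in the drug nor any vehicle in the control medium.

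A replication fork forms where an origin, marked by the origin recognition complex, is opened by the MCM helicase together with CDC45 and GINS. DNA polymerase alpha-primase lays down primers, polymerase epsilon extends the leading strand and polymerase delta the lagging strand, each held to DNA by the ring-shaped clamp PCNA that replication factor C loads. Replication protein A covers single-stranded DNA, nucleases and a ligase finish the Okazaki fragments, and chromatin assembly factor 1 places histones behind the fork. Embryonic cardiomyocytes still divide, and many of these genes are transcribed mainly in cells that enter S phase, under control of E2F transcription factors. In RNA of whole cultures, fewer cells of a type and less RNA per cell cannot be told apart.

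The promoter windows of the genes are shown as background, because E2F is the textbook regulator of many of them. Whether E2F had a part in the changes with simvastatin was not tested. RefSeq windows on GRCm38.p6, from 250 bases before to 50 after each start, were at hand for 27 of the 34 genes (31 windows). Gins1, Gins2, Gins4, Pole, Prim2, Rfc2 and Tipin were not matched. Each window was searched on both strands for 4 E2F words, TTTCCCGC, TTTCGCGC, TTTGCCGC and TTTGGCGC. A word was present in 10 of the 31 windows (32.3%), against 2.26% of all 32851 windows and 3.69% of the 14359 windows of genes tested here. None of the words found overlapped a CCAAT or TTTGAA word. The 11 words found are given within 30 bases each, 5′ to 3′ on the strand of the gene, with the E2F word in capitals. Distances count from the start site as base 0, and words that read GCG first lie in reverse orientation.
Orc1, chr4:108579416-108579445, plus strand, word at -27: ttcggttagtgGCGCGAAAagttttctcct
Clspn, chr4:126556990-126557019, plus strand, word at 21: accgcgtctggGCGCGAAAgctcgaacttc
Pole2, chr12:69228162-69228191, minus strand, word at 10: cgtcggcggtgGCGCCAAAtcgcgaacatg
Pola1, chrX:93632275-93632304, minus strand, word at -138: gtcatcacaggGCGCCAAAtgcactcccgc
Lig1, chr7:13278841-13278870, plus strand, word at 26: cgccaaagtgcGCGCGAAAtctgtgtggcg
Mcm8, chr2:132816161-132816190, plus strand, word at 39: gcagaagcgcgtcatagacGCGCCAAAaaa
Pold1, chr7:44548766-44548795, minus strand, word at 39: cacggcggcgtatcttgtgGCGGGAAAagc
Rfc3, chr5:151651200-151651229, minus strand, word at -10: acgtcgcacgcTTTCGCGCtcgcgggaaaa
Rfc3, chr5:151651190-151651219, minus strand, word at 0: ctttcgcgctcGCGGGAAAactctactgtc
Gins3, chr8:95633507-95633536, plus strand, word at -41: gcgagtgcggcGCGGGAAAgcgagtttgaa
Pold3, chr7:100121467-100121496, minus strand, word at 17: gagcgaagctgTTTCCCGCcggcgggagct

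Of these 11 words, 7 began at or after the RefSeq start site. The counted genes can begin elsewhere: that of Orc1 begins at 108579423, before its word. CCAAT, the box bound by NF-Y, was present in 48.4% of the genes' windows, against 37.4% both of all windows and of windows of tested genes. TTTGAA, the core of the cell cycle homology region, was present in 9.68%, against 17.9% of all windows and 12.1% of windows of tested genes. The 10 genes with an E2F word, of which 10 fell, had a median log2 fold change of -1.37 with simvastatin and a range from -2.17 to -0.65. Of the 17 matched genes without such a word 15 fell, all but Pold2 and Rfc1, with a median of -1.47 and a range from -2.22 to -0.23. The difference between these sets of genes was not tested. The 100 bases before the starts of Orc1 and Rfc1 are shown as examples of a gene with a large fall and of a gene that did not pass the test. Capitals mark E2F words and CCAAT in either orientation.
Orc1, chr4:108579354-108579453, plus strand: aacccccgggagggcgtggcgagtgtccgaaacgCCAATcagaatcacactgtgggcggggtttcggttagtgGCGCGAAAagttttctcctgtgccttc
Rfc1, chr5:65335640-65335739, minus strand: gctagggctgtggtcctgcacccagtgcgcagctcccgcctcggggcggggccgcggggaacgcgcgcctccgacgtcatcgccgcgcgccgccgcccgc

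The Orc1 stretch holds a CCAAT box and an E2F word, and these 100 bases of Rfc1 hold neither. The full Rfc1 window does hold CCAAT words, at -166 and at 33 from the start site. These examples do not stand for the list. The same stretches of Dna2 and Chaf1b, with log2 fold changes of -2.22 and -2.11, hold neither word. A stretch of Pold2, which did not pass, holds CCAAT. A match of letters is a description and no evidence of binding.

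With simvastatin 31 of the 34 genes fell and 0 rose (edgeR quasi-likelihood test over 16126 genes, Benjamini-Hochberg adjusted p under 0.05). Of all genes tested 9.61% fell and 7.79% rose. No gene of the list rose at an unadjusted p under 0.05 either, and DESeq2 and limma-voom also gave 31 falls and 0 rises. The median log2 fold change of the list was -1.38, against 0.01 over all genes tested. In 33 of the 34 genes every simvastatin library was below every control library, which held for 12.1% of all genes. A fall of at least 2-fold that passed the test was seen in 22 genes, and in 804 of the 16126 genes tested. Mean CPM with simvastatin was under 25% of the control mean in 5 genes, between 25% and 50% in 17 and at 50% or more in 12. Summed over the 34 genes, the control level was 1362 ± 54.6 CPM and the simvastatin level 722 ± 29.4 CPM (SD, n = 4 each), or 53.0% of the control level. Pold2, Gins4 and Rfc1 did not pass the test. CPM here are counts as a share of the TMM-scaled library total, on the usual CPM scale, which compares a gene between libraries but not genes of different length.

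**Figure D1:**
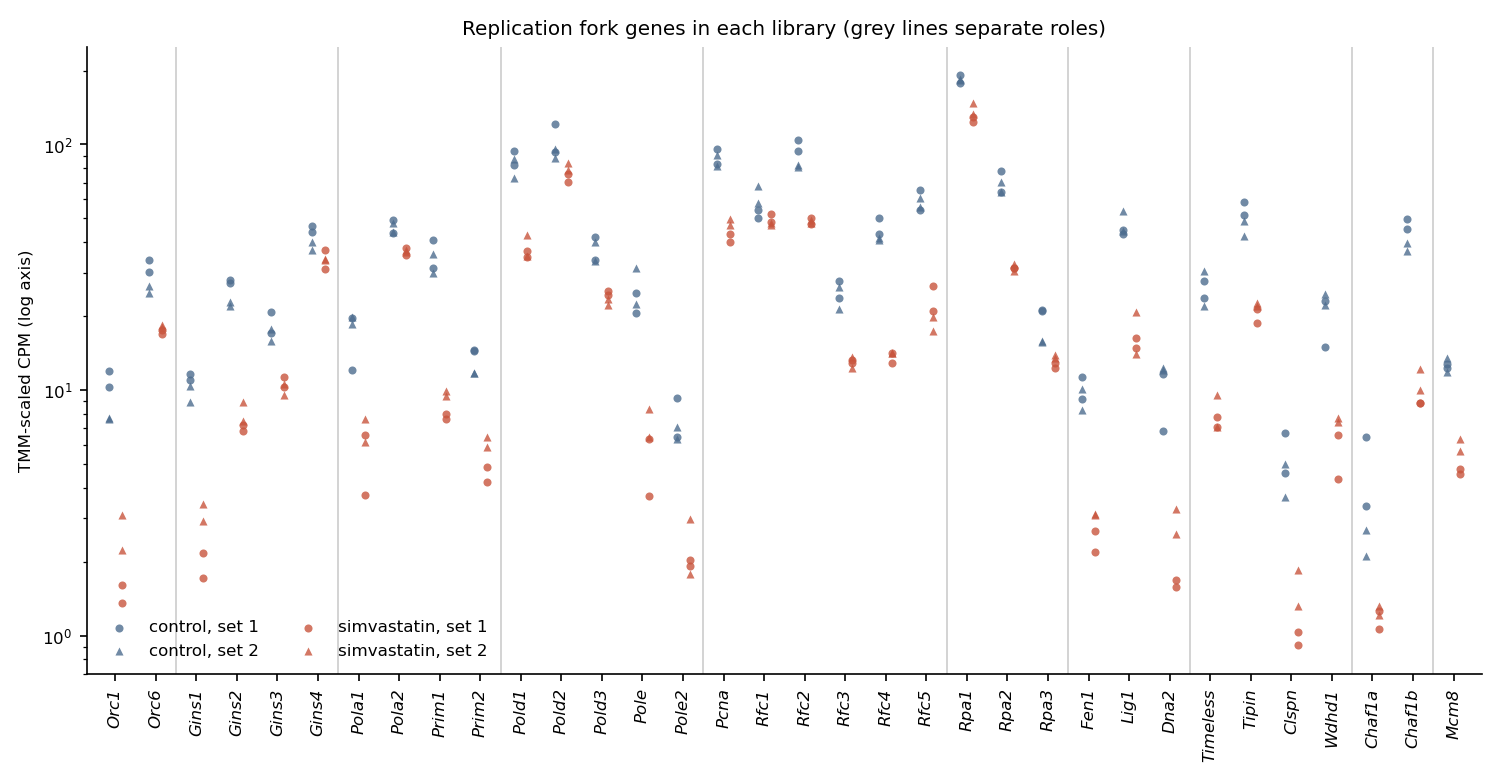
CPM of each of the 34 genes (log axis) in the 4 control and 4 simvastatin libraries, 1 point per library, with circles for set 1 and triangles for set 2. The simvastatin points lie below all control points for 33 genes, and the groups overlap only for Rfc1.

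Library totals ran from 31457872 to 35215640 counts in controls and from 30474586 to 34993255 with simvastatin. The headers of the count columns name a set: replicates 1 and 3 of both groups carry set 1, and replicates 2 and 4 carry set 2. The labels do not say what distinguishes the sets. Whether replicates were separate cultures is not stated, so p-values measure the spread between these libraries, which may be technical. The summed level of 6 cardiomyocyte markers was high, from 32969 to 44749 CPM in controls and 35562 to 43882 CPM with simvastatin. Nkx2-5 was low among them, at 3.56 to 16.6 CPM in controls and 3.97 to 29.7 CPM with simvastatin. Of these 6 genes 0 fell and 0 rose, where 9.61% of all genes fell and 7.79% rose. Fibroblast markers fell in 3 of 6 (summed 868 to 1959 against 894 to 1083 CPM), and macrophage markers in 3 of the 5 tested (63.0 to 74.1 against 45.0 to 55.6 CPM). The fibroblast sum was 1689 and 1959 CPM in set 1 controls and 868 and 895 CPM in set 2 controls. With simvastatin it was 938 and 894 CPM in set 1 and 1083 and 943 CPM in set 2. The 3 that fell, Col3a1, Pdgfra and Tcf21, were highest in the set 1 controls. Dcn stood at 144% of its control mean and did not pass (edgeR adjusted p = 0.106). Epicardial markers fell in 2 of 6 and rose in 1 (166 to 268 against 205 to 280 CPM), and endothelial markers fell in 1 of 6 and rose in 1 (202 to 287 against 201 to 256 CPM). Such sums follow the most abundant markers. Of the control mean, the epicardial Wt1 and Aldh1a2 fell to 25.4% and 49.3% and Msln rose to 159%. The endothelial Emcn fell to 21.4% and Tek rose to 264%. Erythroid markers rose in 3 of the 4 tested (6.39 to 10.1 against 13.8 to 31.3 CPM). No marker of these lists was at 0 in every library. The part of these other cells in the changes of replication genes was not tested.

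The origin recognition genes on the list are Orc1, the subunit that is made anew before each S phase, and Orc6, which helps to load the helicase. Values per library are given in the order of replicates 1 to 4. Orc1 (chromosome 4, 108579423 to 108614833) stood at 11.99, 7.64, 10.3 and 7.67 CPM in controls and at 1.35, 3.11, 1.61 and 2.24 CPM with simvastatin. Its groups did not overlap, and within each group the set 1 libraries were the extremes, highest in controls and lowest with simvastatin. The log2 fold change was -2.17 ± 0.28 (SE, edgeR adjusted p = 0.000454), the second lowest of the list. Orc6 (chromosome 8, 85299632 to 85308278) stood at 33.9, 26.5, 30.1 and 24.7 CPM in controls and at 17.0, 17.997, 17.5 and 18.3 CPM with simvastatin. This was a smaller fall, to 61.5% of the control mean (log2 fold change -0.70 ± 0.12, edgeR adjusted p = 0.00309). The ratio of Orc1 to Orc6 dropped by 1.53 on the log2 scale. The other subunits, Orc2, Orc3, Orc4 and Orc5, did not pass the test, with log2 fold changes of -0.22, -0.09, -0.19 and -0.09. Exons of Orc1 share 10.8% of their bases with Gm12743 and those of Orc6 share 6.93% with Vps35, both on the opposite strand. Those of Orc2 share 29.8% with Nif3l1, also on the opposite strand. The sources used here do not state the strand setting of the counting, and without it reads of such pairs cannot be told apart.

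GINS is a ring of 4 small subunits that belongs to the active helicase. Gins2 (chromosome 8, 120578633 to 120589304) stood at 27.3, 21.9, 28.1 and 22.8 CPM in controls and at 6.84, 7.49, 7.23 and 8.95 CPM with simvastatin. Gins1 (chromosome 2, 150905400 to 150931280) stood at 10.96, 8.91, 11.6 and 10.4 CPM in controls and at 2.17, 3.43, 1.71 and 2.93 CPM with simvastatin. Both fell without overlap, with log2 fold changes of -1.71 ± 0.14 and -2.03 ± 0.22 (SE, edgeR adjusted p = 4.43e-05 and 0.000189). Gins3 (chromosome 8, 95633453 to 95645060) fell less, from 20.8, 15.9, 17.0 and 17.7 CPM to 10.3, 9.503, 11.4 and 10.6 CPM, a log2 fold change of -0.77 ± 0.13. Gins4 (chromosome 8, 23226616 to 23237659) stood at 44.0, 40.0, 46.7 and 37.3 CPM in controls and at 37.0, 34.3, 31.0 and 33.9 CPM with simvastatin. Its lowest control lay just above its highest simvastatin library, and it did not pass the test (log2 fold change -0.30 ± 0.11, edgeR adjusted p = 0.0845). Gins2 shares 67.3% of its exon bases with Gse1 on the opposite strand, so its level is uncertain.

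DNA polymerase alpha-primase starts every new strand: Prim1 and Prim2 encode the primase, Pola1 the polymerase and Pola2 the accessory subunit. Prim1 (chromosome 10, 128015168 to 128030037) went from 40.7, 30.1, 31.5 and 35.7 CPM in controls to 7.97, 9.88, 7.61 and 9.42 CPM with simvastatin. The simvastatin mean was 25.3% of the control mean (log2 fold change -1.98 ± 0.15, edgeR adjusted p = 2.42e-05). Prim2 (chromosome 1, 33453810 to 33669795) went from 14.4, 11.7, 14.6 and 11.7 CPM to 4.85, 6.42, 4.23 and 5.86 CPM. Pola1 (chromosome X, 93304767 to 93632155) went from 19.6, 19.8, 12.1 and 18.5 CPM to 3.75, 6.16, 6.55 and 7.60 CPM. The log2 fold changes were -1.29 ± 0.17 for Prim2 and -1.54 ± 0.24 for Pola1, and control replicate 3 was the lowest Pola1 control. Pola2 (chromosome 19, 5940543 to 5964206) stayed much closer to its control level, from a mean of 46.2 ± 2.78 to 36.8 ± 0.949 CPM (SD, n = 4 per group). Its log2 fold change of -0.33 ± 0.09 passed narrowly (edgeR adjusted p = 0.0331), and the call ended when any library other than control replicate 1 was left out (edgeR adjusted p from 0.0574 to 0.0818).

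Polymerases delta and epsilon copy the bulk of the genome. Pold1, the catalytic subunit of delta (chromosome 7, 44532746 to 44548849), went from 82.6, 73.1, 94.4 and 87.3 CPM in controls to 34.8, 42.6, 36.7 and 35.1 CPM with simvastatin. Pole, the catalytic subunit of epsilon (chromosome 5, 110286306 to 110337474), went from 24.8, 22.4, 20.5 and 31.5 CPM to 3.69, 6.42, 6.32 and 8.36 CPM. Pole2, its second subunit (chromosome 12, 69201779 to 69228190), went from 9.28, 7.04, 6.41 and 6.31 CPM to 1.92, 1.79, 2.03 and 2.996 CPM. In all these genes the groups were far apart, with log2 fold changes of -1.18 ± 0.11 for Pold1, -2.0003 ± 0.24 for Pole and -1.73 ± 0.22 for Pole2 (SE, edgeR adjusted p = 8.42e-05, 0.0003 and 0.000454). Pold3 (chromosome 7, 100082111 to 100121565), an accessory subunit that binds PCNA, fell to 63.9% of the control mean (log2 fold change -0.65 ± 0.11). Pold2 (chromosome 11, 5872180 to 5878292), which joins the other subunits, stood at 92.8, 96.1, 122 and 88.1 CPM in controls and at 75.9, 84.4, 70.5 and 79.0 CPM with simvastatin. Every simvastatin library was below the controls by a small margin, and the difference did not pass the test (log2 fold change -0.36 ± 0.12, edgeR adjusted p = 0.0585). Of the remaining subunits, Pold4 stood at 11.5 ± 2.24 and 15.6 ± 2.88 CPM and Pole3 at 49.0 ± 4.39 and 39.4 ± 4.05 CPM in control and simvastatin libraries (SD, n = 4 per group; edgeR adjusted p = 0.142 and 0.0804), while Pole4 fell with -0.43.

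PCNA encircles DNA behind the polymerases, and the RFC complex of 5 subunits opens and loads it. Rfc4 (chromosome 16, 23113943 to 23127737) went from 43.1, 41.6, 50.2 and 40.7 CPM in controls to 14.1, 14.1, 12.9 and 14.2 CPM with simvastatin. Rfc5 (chromosome 5, 117378103 to 117389047) went from 53.9, 55.8, 65.5 and 60.4 CPM to 26.6, 19.9, 21.1 and 17.4 CPM. Pcna (chromosome 2, 132249162 to 132253314) went from 95.8, 90.3, 82.9 and 81.4 CPM to 40.1, 47.0, 43.1 and 49.8 CPM. Rfc4 had the smallest p of the whole list (log2 fold change -1.67 ± 0.11, edgeR adjusted p = 1.59e-05). Rfc5 had a log2 fold change of -1.47 ± 0.14 and Pcna, also a common marker of dividing cells, -0.96 ± 0.10. Pcna has pseudogenes in the annotation, among which its reads could be divided. Rfc2 and Rfc3 fell to 53.7% and 52.4% of the control mean. Rfc1 (chromosome 5, 65261850 to 65335670), the large subunit, stood at 53.9, 57.5, 49.99 and 67.5 CPM in controls and at 48.2, 46.9, 52.0 and 47.8 CPM with simvastatin. It was the only gene of the list whose groups overlapped (log2 fold change -0.23 ± 0.11, edgeR adjusted p = 0.192). Rfc2, Rfc4 and Rfc5 share 15.1%, 12.7% and 10.7% of their exon bases with Lat2, Eif4a2 and Wsb2 on the opposite strand.

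Replication protein A had the smallest median change of the roles with several genes, -0.49 on the log2 scale. Rpa2 (chromosome 4, 132768332 to 132778752) went from 64.1, 64.3, 77.7 and 70.2 CPM in controls to 31.5, 32.6, 31.5 and 30.5 CPM with simvastatin. Rpa1 (chromosome 11, 75298166 to 75348324) went from 191, 183, 177 and 185 CPM to 124, 148, 129 and 133 CPM. Rpa3 (chromosome 6, 8255936 to 8259173) went from 20.9, 15.9, 21.2 and 15.7 CPM to 12.9, 13.6, 12.3 and 13.8 CPM. No groups overlapped, though the fall was deep only in Rpa2, which regulates the complex through its phosphorylation (log2 fold change -1.13 ± 0.10, edgeR adjusted p = 5.44e-05). Rpa1, the main DNA-binding subunit, had -0.47 ± 0.09 (edgeR adjusted p = 0.0038). Rpa3 had -0.49 ± 0.14 (edgeR adjusted p = 0.0394), and leaving out any library other than control replicate 2 or 4 ended its call (edgeR adjusted p from 0.0722 to 0.109), as did scaling by library totals (edgeR adjusted p = 0.0588).

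Okazaki fragments are trimmed by the nucleases FEN1 and DNA2 and sealed by DNA ligase 1. Lig1 (chromosome 7, 13277283 to 13311433) went from 43.3, 44.5, 45.0 and 53.7 CPM in controls to 16.2, 14.1, 14.9 and 20.8 CPM with simvastatin. Fen1 (chromosome 19, 10199132 to 10204169) went from 9.23, 8.26, 11.3 and 10.1 CPM to 2.68, 3.11, 2.19 and 3.13 CPM. Dna2 (chromosome 10, 62947026 to 62974185) went from 11.6, 12.1, 6.78 and 12.3 CPM to 1.58, 3.28, 1.68 and 2.60 CPM. All of them fell more than 2-fold without overlap: the log2 fold changes were -1.50 ± 0.14, -1.80 ± 0.18 and -2.22 ± 0.28 (SE, edgeR adjusted p = 8.26e-05, 9.99e-05 and 0.000454), with that of Dna2 the lowest of the list. Fen1 shares 78.8% of its exon bases with the antisense gene Gm10143 and 5.37% with Tmem258, also on the opposite strand. Its level is uncertain for that reason. Over all libraries Fen1 had 1664 counts, Gm10143 124 and Tmem258 29407.

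Timeless, Tipin and Claspin travel with the fork, hold it together when it stalls and pass the signal to the checkpoint, and Wdhd1 (AND-1) links the helicase to polymerase alpha. Timeless (chromosome 10, 128232065 to 128252941) went from 27.8, 22.1, 23.6 and 30.5 CPM in controls to 7.09, 9.53, 7.74 and 7.05 CPM with simvastatin. Tipin (chromosome 9, 64281581 to 64305424) went from 58.5, 48.9, 51.5 and 42.6 CPM to 18.7, 22.0, 21.4 and 22.6 CPM. Wdhd1 (chromosome 14, 47240944 to 47276857) went from 23.2, 22.2, 14.9 and 24.6 CPM to 4.35, 7.69, 6.58 and 7.41 CPM. The groups were separate in each, with log2 fold changes of -1.73 ± 0.16, -1.25 ± 0.12 and -1.70 ± 0.22 (SE, edgeR adjusted p = 6.43e-05, 9.31e-05 and 0.000432). Clspn, with the lowest level per length of the list, fell from 4.97 ± 1.25 to 1.28 ± 0.414 CPM (SD, n = 4 per group; log2 fold change -1.96 ± 0.28).

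Chromatin assembly factor 1 deposits new histones H3 and H4 on copied DNA. Chaf1b (chromosome 16, 93883901 to 93906115) went from 45.3, 36.9, 49.9 and 39.7 CPM in controls to 8.85, 10.0, 8.87 and 12.1 CPM with simvastatin, or 23.2% of the control mean (log2 fold change -2.11 ± 0.15, edgeR adjusted p = 2.04e-05). Chaf1a (chromosome 17, 56040416 to 56068026) went from 3.36, 2.69, 6.47 and 2.10 CPM to 1.26, 1.32, 1.06 and 1.22 CPM. The Chaf1a groups did not overlap, but control replicate 3 stood at the top: the log2 fold change was -1.59 ± 0.34 (edgeR adjusted p = 0.00913) and -1.15 without that library (edgeR adjusted p = 0.012). Chaf1a also shares 18.7% of its exon bases with Ubxn6 on the opposite strand. Rbbp4, the third subunit, which serves many chromatin complexes, stood at 382 ± 28.9 and 339 ± 30.7 CPM (edgeR adjusted p = 0.264). Mcm8 (chromosome 2, 132816141 to 132844197), a helicase of DNA repair related to the replicative MCM proteins, went from 12.7, 11.9, 12.3 and 13.6 CPM to 4.76, 6.31, 4.55 and 5.63 CPM. Its groups were tight and apart (log2 fold change -1.25 ± 0.15, edgeR adjusted p = 0.000331), while its partner Mcm9 did not pass (log2 fold change -0.25, edgeR adjusted p = 0.304).

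**Figure D2:**
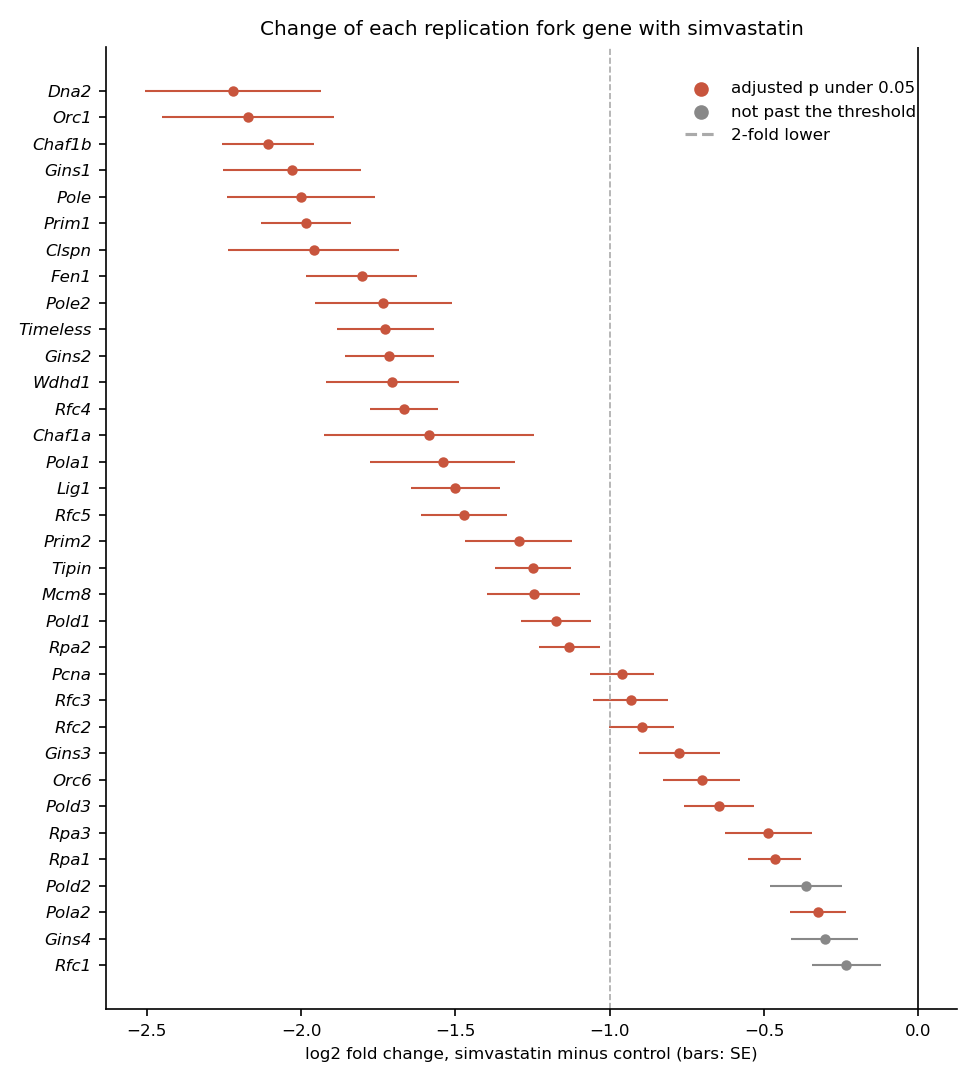
Log2 fold change of each gene, simvastatin minus control, with bars for the SE, ordered by size, with the dashed line at a 2-fold fall. Dna2, Orc1 and Chaf1b are at the top with -2.22, -2.17 and -2.11, and the 3 grey points are Pold2, Gins4 and Rfc1.

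Listed subunits of several complexes changed unequally. For every pair of listed subunits in a complex the log2 ratio of CPM was compared between groups with an exact two-sided permutation test, 32 pairs in all. Libraries were rearranged without regard to the sets, so the test does not allow for a difference between sets. In 22 pairs the ratios of the groups did not overlap, which gives the smallest p that 4 against 4 libraries allow (exact permutation p = 0.0286, adjusted 0.0416 over the 32 pairs). As all 22 share this p, the adjusted value is set by how many pairs reached it. The share of such pairs among other genes was not determined. The ratios use the same CPM as the changes of single genes above, of genes listed with earlier results known. In GINS, Gins1 and Gins2 fell relative to Gins3 and Gins4 in all 4 such pairs, with the Gins1 to Gins4 ratio lower by a log2 difference of -1.78. Pola2 rose relative to Prim1 by 1.66, to Prim2 by 0.98, and the ratio of Pola1 to Pola2 dropped by 1.24. Pold1 fell relative to Pold2 by a log2 difference of -0.82 and to Pold3 by -0.53. In RFC, 8 of 10 pairs differed: Rfc1 was higher relative to each of the other subunits, from 0.66 against Rfc2 to 1.44 against Rfc4, and Rfc2 and Rfc3 were higher relative to Rfc4 and Rfc5. Rpa2 fell relative to Rpa1 and Rpa3, and Timeless fell relative to Tipin by -0.48.

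Other pairs did not differ by this test. The Rpa1 to Rpa3 ratio was 3.34 ± 0.246 in controls and 3.34 ± 0.0921 with simvastatin, and the Rfc2 to Rfc3 ratio 1.865 ± 0.153 and 1.902 ± 0.096 (log2, SD, n = 4 per group; exact permutation p = 1 and 0.743). The Pole to Pole2 ratio moved from 1.77 ± 0.386 to 1.48 ± 0.388, and Chaf1a to Chaf1b from -3.68 ± 0.537 to -3.03 ± 0.218 (exact permutation p = 0.4 and 0.0857, n = 4 per group). A second family of 18 pairs set listed subunits against subunits of the same complex outside the list, and was chosen after the values were seen. Most of its listed genes fell and most of its other subunits did not pass, so its outcome largely follows from the choice and is no test. The ratios of the groups did not overlap in 15 of these pairs. They included Orc1 against each of Orc2 to Orc5 (log2 differences from -2.14 to -2.01), Pole and Pole2 against Pole3 and Pole4 (-1.72 to -1.31), and Chaf1b against Rbbp4 (-1.93). Of the Orc6 ratios only that to Orc5 had groups without overlap.

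**Figure D3:**
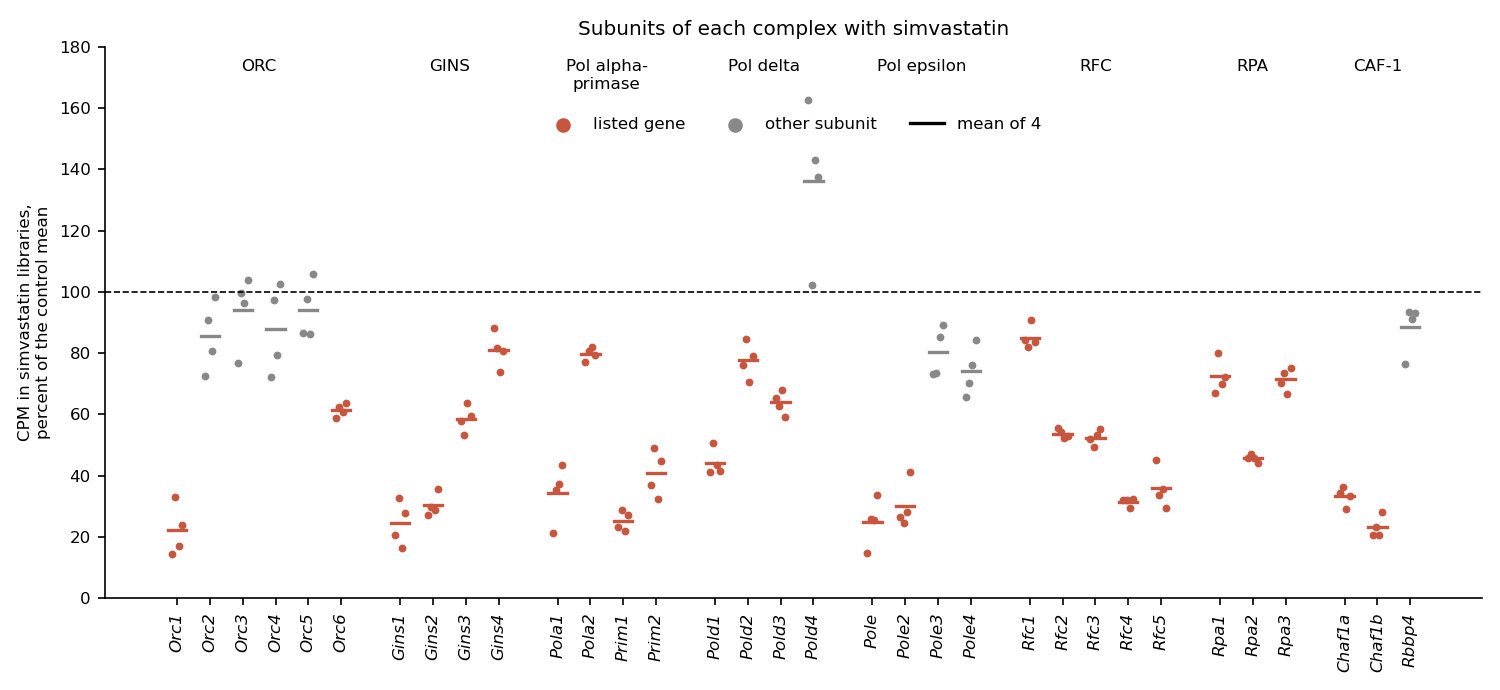
CPM in each of the 4 simvastatin libraries as a percentage of the control mean, by complex, with a bar at the mean, listed genes in red and other subunits in grey. Orc1 lies at 22.1% beside Orc2 to Orc5 near the dashed line at 100%, and Gins4, Pola2 and Rfc1 lie highest among the listed subunits of their complexes.

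Levels of different genes were compared as CPM per kilobase of exons. In controls the highest were Pold2 at 52.6 ± 7.94, Pcna at 36.5 ± 2.80, Rpa1 at 33.0 ± 0.994 and Gins4 at 31.1 ± 3.10 CPM per kilobase (SD, n = 4), and Rpa1 and Gins4 differed by less than the spread of Gins4. The lowest were Dna2 at 1.82 ± 0.446, Chaf1a at 1.11 ± 0.587 and Clspn at 0.692 ± 0.174. With simvastatin Pold2 was still highest at 40.9 ± 3.06, and Gins4 at 25.2 ± 1.82 and Rpa1 at 23.9 ± 1.85 came next. Rfc4 went from rank 5 to rank 9 among the 34 genes, and Rfc1 from rank 15 to rank 10. Within GINS the control levels of Gins1, Gins3 and Gins2, at 6.91 ± 0.762, 6.59 ± 0.773 and 6.11 ± 0.762, were within their spread, and with simvastatin Gins3 stood at 3.85 ± 0.283 above Gins1 at 1.69 ± 0.505 and Gins2 at 1.86 ± 0.226. Across the 34 genes a higher control level went with a smaller fall (Spearman rho 0.624). This is a description over genes measured in the same libraries, and both quantities use the controls.

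**Figure D4:**
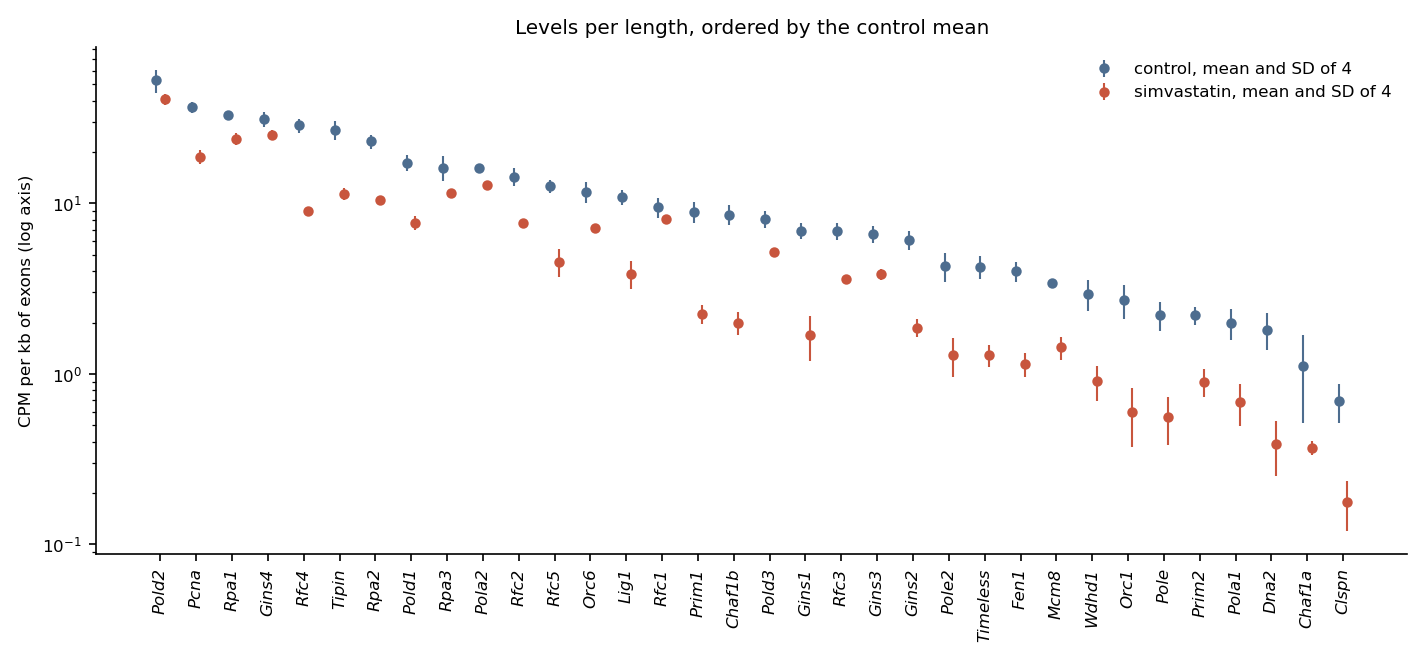
CPM per kilobase of exons (log axis) of each gene in control and simvastatin libraries, mean and SD of 4, ordered by the control mean. The order runs from Pold2 at 52.6 to Clspn at 0.692 in controls, and the gap between the groups is narrow at Pold2, Gins4, Pola2 and Rfc1.

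The falls were present in each set. In set 1 alone 27 of the 34 genes fell, where 5.91% of all genes did, and in set 2 alone 29 fell, where 11.5% did. The list's median was -1.50 for set 1 and -1.09 for set 2, against 0.0007 and 0.0054 over all genes, and 31 genes had the more negative value in set 1. The interaction of treatment with set was significant for 0 of the 34 genes in edgeR after adjustment, against 0.0558% of all genes, and it had an unadjusted p under 0.05 for 7 genes. Orc1 had the lowest of these p-values, with -2.92 for set 1 against -1.51 for set 2 on the log2 scale (edgeR interaction 1.39 ± 0.34, adjusted p = 0.123). The other genes were Gins1, Gins2, Prim2, Rpa3, Clspn and Chaf1b, each with a smaller fall in set 2. Rfc1, Rfc5 and Pold3 were the genes with the more negative value in set 2. Rfc1 passed the test in set 2 alone (log2 fold change -0.40, edgeR adjusted p = 0.0357) and had -0.07 in set 1. For the counts of 31 and 7 genes the share over all genes was not determined, so neither can be read as particular to the list.

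**Figure D5:**
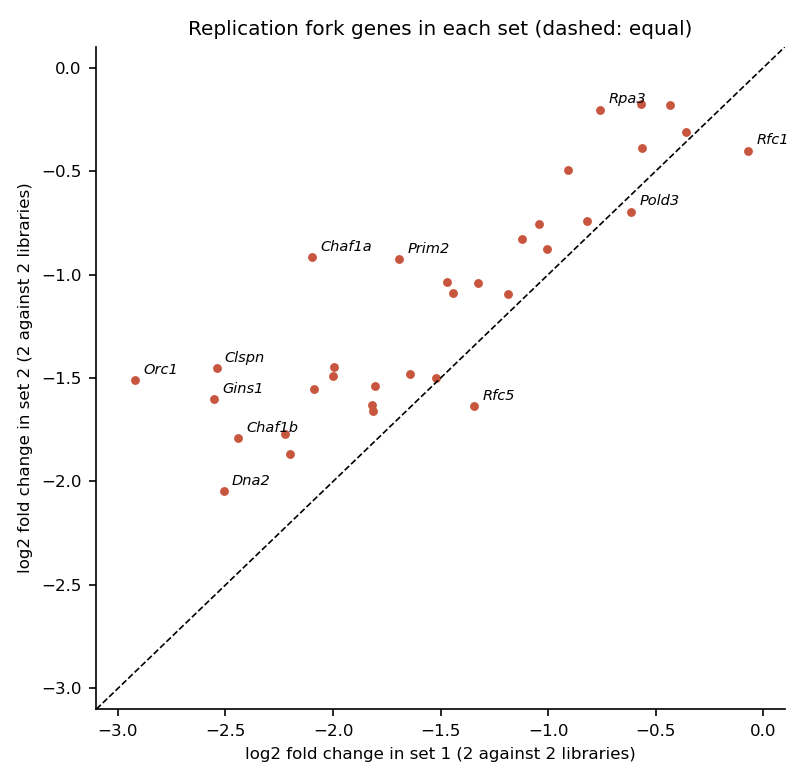
Log2 fold change of each gene in set 1 (horizontal axis) and in set 2 (vertical axis), each from 2 against 2 libraries, with the dashed line at equal values. All 34 points are below 0 on both axes, and 31 lie above the line.

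Among 35 other genes of replication 19 fell (edgeR, adjusted p under 0.05), and their median was -0.51 on the log2 scale. None of them rose: the count was 0 in edgeR, DESeq2 and limma-voom, and 1 (Pold4) had an unadjusted p under 0.05 with a higher level. This is a share of calls well above the 9.61% of all genes, and these genes were also listed with earlier results known. Asf1b, a histone chaperone that hands histones to the assembly factor, fell from 82.4 ± 8.80 to 19.5 ± 2.77 CPM and Pclaf, which binds PCNA, from 82.3 ± 12.3 to 13.9 ± 3.20 CPM (SD, n = 4 per group; log2 fold changes -2.07 and -2.56). Chtf18, part of an alternative clamp loader, had a log2 fold change of -1.76. Mcm10 and Cdc45, which activate the helicase, had -2.29 and -1.98. Of those that did not pass, Rbbp4, Tonsl and Orc3 had the highest levels, and Tonsl, which protects nascent chromatin, had a log2 fold change of 0.01 ± 0.11.

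Polymerases that serve repair, bypass of damage and mitochondria made a list of 14, of which 2 fell, and the median was -0.09 on the log2 scale. With 9.61% of all genes falling, a count of 2 among 14 is near the background. The count that rose was 0 in edgeR and limma-voom and 1 in DESeq2, and in edgeR 1 (Polg2) had an unadjusted p under 0.05 with a higher level. Polq, the polymerase of an error-prone end joining pathway, fell from 4.92 ± 1.29 to 1.28 ± 0.794 CPM (-1.94 ± 0.41 on the log2 scale, edgeR adjusted p = 0.00851), and Mad2l2, a subunit of polymerase zeta, from 32.5 ± 2.15 to 25.1 ± 2.46 CPM (edgeR adjusted p = 0.0416). The call of Mad2l2 is the weaker, and leaving out any of control replicates 1, 2 and 3 and simvastatin replicates 2 and 3 brought the list's count to 1. Polb, the polymerase of base excision repair, stood at 47.7 ± 2.94 and 54.1 ± 0.885 CPM, Polg of mitochondria at 37.2 ± 14.9 and 34.9 ± 13.2 CPM and Rev3l, the catalytic subunit of zeta, at 20.8 ± 3.04 and 23.1 ± 1.76 CPM (edgeR adjusted p = 0.211, 0.898 and 0.51). Polg2 and Polh, next by p, had log2 fold changes of 0.63 and -0.58 (edgeR adjusted p = 0.0829 and 0.182).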

How the data were processed

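The deposited values are raw counts per Ensembl gene made by the authors with Trimmomatic 0.36, STAR 2.5.2b and featureCounts of Subread 1.5.2 on GRCm38, per the submitters' processing notes. Gene lengths come from the same deposited tables. The sources used here do not state the annotation release or the strand and multi-mapping settings. Symbols came from GENCODE M21, which matched 99.3% of identifiers, and coordinates are printed as in the files (1-based). The list gene Hrob was not matched.

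Genes were kept by filterByExpr (16126 of 49315) and TMM-scaled. The test was two-sided, by glmQLFTest in edgeR 4.0.16 (R 4.3.3), with no term besides treatment and a threshold of 0.05 on Benjamini-Hochberg adjusted p-values over all genes tested. The SE is the log2 fold change divided by the square root of F. Ratios and permutation tests were computed in Python 3.11.15. The edgeR step was tested on simulated data. The members and lists were chosen with earlier results of these data known. Values in every library were given for the 3 genes of each role with the smallest p and for genes that did not pass. Other genes named had the smallest p of their list or the highest level among those that did not pass, or belong to a complex described. Alternatives were DESeq2 1.42.0 (Wald test, or its size factors), limma-voom (limma 3.58.1), library totals, other filters on low counts, a replicate block, set as a term, each set alone, thinning to 30474586 counts, and leaving out each library. No library was a copy of another: same-group pairs differed beyond sampling noise. The chi-square of counts per degree of freedom was 42.1 to 82.1 for pairs across sets. For pairs of the same set it was 21.6 (control replicates 2 and 4), 23.9 (simvastatin 1 and 3) and 16.5 (simvastatin 2 and 4). Control replicates 1 and 3, also of the same set, had 64.6. Most libraries were thus more alike within a set, and the main fit has no term for set.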

Additional observations from a re-analysis of the deposited data

Results flagged for a closer look

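In 4 of the 68 groups of 4 libraries examined for the 34 genes, the highest or lowest library stood apart from the other three by more than Dixon's 95% critical value, and chance gives about 1 in 20 groups. Control replicate 3 had the lowest control value of Pola1, 12.1 CPM against 18.5 to 19.8, and of Dna2, 6.782 CPM against 11.6 to 12.3. Control replicate 4 had the highest control value of Lig1, 53.7 CPM against 43.3 to 45.0. Simvastatin replicate 3 had the lowest value of Rfc4, 12.87 CPM against 14.1 to 14.2. Without the library in question the log2 fold changes were -1.68 for Pola1, -2.38 for Dna2, -1.43 for Lig1 and -1.64 for Rfc4, and each gene still passed the edgeR test (adjusted p from 0.000149 to 0.00102).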

How the results depend on the processing

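The count of 31 falls ranged from 27 in set 1 alone to 31 over all alternatives run, with 29 to 30 when a library was left out, and no gene of the 34 rose in any of them. Of 646 results for single genes under the alternatives, 620 stayed on the same side of the threshold, 25 lost and 1 gained a call, and 0 changed direction. The losses were those of Pola2 and Rpa3, apart from Gins3 and Pold3 in set 1 alone and Chaf1a in set 2 alone. The median of -1.38 was -1.50 in set 1 alone and -1.09 in set 2 alone, and ran from -1.42 to -1.24 without a library. The total of 2805 changed genes was 1627 in set 1 alone. The 2 falls among other polymerases were 1 with library totals, with no filter, with the replicate block, in set 1 alone and after thinning, and 1 to 2 without a library. With the replicate block 29 of the 34 genes fell. Deviations of same-numbered libraries correlated from -0.162 to 0.133 and 0 of 8 libraries correlated best with their own number, so the numbers were not taken as pairs. With 0.5 CPM added, the count of ratios between listed subunits that differed was again 22 of 32. The ratios were not run without a library, since 3 against 4 libraries cannot go below an exact permutation p of 0.0571. Depth limits Clspn and Chaf1a most, with 29 and 33 counts in their lowest libraries.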
